A study of Mus musculus with 10 samples.

Results

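The genes described here are 9 genes of primitive red cells, chosen by name among the 22114 protein-coding genes counted in the first pharyngeal arch (PA1) of mouse embryos at E10.5. They are the embryonic globin genes Hba-x, Hbb-y and Hbb-bh1, the adult alpha globin genes Hba-a1 and Hba-a2, the haem synthesis gene Alas2, the red cell membrane gene Slc4a1 and the transcription factor genes Gata1 and Klf1. RNA was sequenced from the PA1 of 10 male embryos labelled as C57BL/6 (the methods name C57BL/6J as the strain of the backcross), 5 wild-type and 5 homozygous for a null allele of Grhl2 (Grhl2-/-), with 1 library per embryo. GRHL2 is a transcription factor of epithelial cells, and the study asked what its loss does to the developing face. The null allele was carried in every cell of the Grhl2-/- embryos, and the arch was taken whole, with its epithelium, mesenchyme, nerves, vessels and the blood inside them. The embryos carry names such as 1-566, and embryos of both genotypes share the number after the dash. The labels do not say whether that number is a litter, so p-values here measure the spread between these 10 embryos.

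At this stage most circulating red cells are primitive erythroid cells, large nucleated cells that arise in the yolk sac. Each haemoglobin is made of alpha-type and beta-type chains around haem, and primitive cells use embryonic chains (zeta from Hba-x, epsilon-y from Hbb-y and beta-h1 from Hbb-bh1) next to adult alpha chains, while definitive cells from the fetal liver use adult chains only. GATA1 and KLF1 are the transcription factors that switch on globin, haem and membrane genes in both lineages.

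Between 22188454 and 28801378 reads per arch were counted on protein-coding genes, and 14561 genes had at least 10 counts in at least 1 arch and were tested. Grhl2 itself was at 31.8 to 40.5 CPM (counts scaled to library size, after TMM scaling) in wild-type arches and at 2.80 to 6.33 CPM in Grhl2-/- arches, a log2 fold change of -3.02 (FDR 2.67e-06, limma-voom with Benjamini-Hochberg adjustment over all genes tested). All 11 first arch mesenchyme markers were present, with summed levels of 1458.9 to 1827.6 CPM in wild-type arches and 1086.3 to 1310.6 CPM in Grhl2-/- arches, while the markers of more posterior arches (Hoxa2, Hoxb2 and Hoxa3) summed to at most 1.73 CPM. Each arch is a mixture of cells, so fewer red cells and less RNA per red cell cannot be told apart in these data.

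The globin genes lie in 2 clusters in which the embryonic gene comes first in the direction of transcription (GRCm38, GENCODE). On the plus strand of chromosome 11, Hba-x (chr11:32276400-32278116) is followed by Hba-a1 (chr11:32283511-32284465) and Hba-a2 (chr11:32296489-32297298). On the minus strand of chromosome 7, Hbb-y (chr7:103851749-103853216) is followed by Hbb-bh1 (chr7:103841637-103843164) and the adult genes Hbb-bs and Hbb-bt. Slc4a1 (chr11:102348824-102366203) and Klf1 (chr8:84901928-84905291) are elsewhere on autosomes, and Alas2 (chrX:150547375-150570638) and Gata1 (chrX:7959260-7978071) are on the X chromosome. The adult copies are near identical. Of the windows of 50 bases, the read length, in the longest transcript, 32.5% in Hba-a1 and 13.1% in Hba-a2 occur in no other gene, against 86.2% in Alas2 and every window in Hba-x, Hbb-y, Hbb-bh1, Slc4a1, Gata1 and Klf1. The split of reads between Hba-a1 and Hba-a2 is therefore uncertain. Whether reads that fit both copies were counted is not given in the sources used here.

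Promoter windows from 250 bases before to 50 bases after the start were found in RefSeq (GRCm38.p6) for 7 of the 9 genes, all but Hbb-bh1 and Slc4a1. The starts are those of RefSeq and differ from the GENCODE gene ends given above. The window of Gata1 lies wholly, and that of Hba-x mostly, inside the gene span given above. Windows are shown for an embryonic alpha gene, an embryonic beta gene, an adult alpha gene and Alas2. The sites for the GATA and KLF factors among the 9 genes can be read in them. Capitals mark matches on either strand to a GATA site (AGATAA, also with T as its first or G as its last base) or a CACCC box (CCNCNCCC), all written 5′ to 3′ along the gene.
Hba-x (chr11:32276350-32276649, plus strand): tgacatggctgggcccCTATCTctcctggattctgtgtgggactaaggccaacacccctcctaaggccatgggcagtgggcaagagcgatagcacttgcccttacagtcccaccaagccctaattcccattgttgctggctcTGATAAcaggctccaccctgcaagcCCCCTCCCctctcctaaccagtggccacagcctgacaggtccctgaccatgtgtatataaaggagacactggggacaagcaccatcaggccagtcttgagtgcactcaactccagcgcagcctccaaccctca
Hbb-y (chr7:103853158-103853457, minus strand): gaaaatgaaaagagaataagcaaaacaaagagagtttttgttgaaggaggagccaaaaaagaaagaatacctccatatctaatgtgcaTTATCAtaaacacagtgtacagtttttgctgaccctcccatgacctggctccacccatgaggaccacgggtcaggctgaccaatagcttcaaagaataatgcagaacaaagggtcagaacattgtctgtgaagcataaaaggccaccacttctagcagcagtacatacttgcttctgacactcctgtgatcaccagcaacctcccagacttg
Hba-a1 (chr11:32283422-32283721, plus strand): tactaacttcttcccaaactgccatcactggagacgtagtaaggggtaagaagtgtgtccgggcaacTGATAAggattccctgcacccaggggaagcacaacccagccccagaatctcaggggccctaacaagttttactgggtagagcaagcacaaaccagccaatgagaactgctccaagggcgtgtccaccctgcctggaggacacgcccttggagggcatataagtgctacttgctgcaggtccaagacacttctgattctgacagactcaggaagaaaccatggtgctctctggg
Alas2 (chrX:150547167-150547466, plus strand): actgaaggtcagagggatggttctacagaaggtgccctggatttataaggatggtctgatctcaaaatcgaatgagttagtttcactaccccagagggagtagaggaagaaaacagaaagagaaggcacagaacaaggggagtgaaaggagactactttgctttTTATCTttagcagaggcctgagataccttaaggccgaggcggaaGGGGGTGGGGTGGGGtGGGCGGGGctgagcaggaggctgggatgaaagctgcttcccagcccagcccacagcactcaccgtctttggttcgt

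The Hba-x window held 2 GATA sites, beginning 234 and 108 bases before the start, and 1 CACCC box beginning 83 bases before it. The windows of Hba-a1 and Hba-a2 were identical over the 297 bases they share once shifted by 3, and each held 1 GATA site and no CACCC box of this spelling. Hbb-y had 1 GATA site, 162 bases before the start, and Klf1 had 1, 80 bases before it. In Alas2, 1 GATA site lay 86 bases before the start, followed by 4 CACCC boxes that begin between 42 and 26 bases before it, 3 of which overlap each other. Gata1 had 3 CACCC boxes and no GATA site in its window. A GATA site was thus found in 6 of 7 windows and both motifs in Hba-x and Alas2. Among all 32851 promoters in the table, 29.8% hold a GATA site, 49.5% a CACCC box and 10.2% both. TATA-like letters (TATAAA, the same with C as its first base, or ATAAAA, on either strand) were found in the windows of Hba-x, 28 bases before the start, Hbb-y and Alas2 and in 29.9% of all promoters. GATA and CACCC matches did not overlap each other in these windows.

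Embryonic globin transcripts outnumbered adult ones in PA1 RNA at E10.5, more so for the beta-type than for the alpha-type chains. Of the counts on alpha-type genes, Hba-x took 93.9% ± 0.216 (SD, n = 5) in wild-type and 93.6% ± 0.180 in Grhl2-/- arches. Of the counts on beta-type genes, Hbb-y took 60.9% ± 1.13 and Hbb-bh1 38.5% ± 1.17 in wild-type arches, and 60.8% ± 1.57 and 38.8% ± 1.59 in Grhl2-/- arches. The adult beta genes Hbb-bt and Hbb-bs together were under 1% of beta-type counts, with 0.465% ± 0.0591 and 0.105% ± 0.00594 in wild-type and 0.356% ± 0.122 and 0.0918% ± 0.0133 in Grhl2-/- arches. The 5 globin genes among the 9 made up between 0.288% and 0.615% of all counts in an arch. Of the counts on these 5 genes and the adult beta genes Hbb-bs and Hbb-bt together, Hba-x, Hbb-y and Hbb-bh1 were 97.6% to 98.0%. Shares of raw counts do not allow for gene length or for reads from sequence that adult copies share, which may have been lost. If no such shared reads were counted, which is not known, all counts of a gene can be divided by the kb of its sequence that occurs in no other gene. Under that condition Hba-x would be 72.8% ± 0.606 of alpha-type transcripts in wild-type and 71.8% ± 0.532 in Grhl2-/- arches. Under the same condition Hbb-y and Hbb-bh1 would be 98.7% ± 0.125 and 99.0% ± 0.258 of beta-type transcripts, and the 3 embryonic genes 92.0% ± 0.482 and 91.7% ± 0.560 of the 5 globins. Had shared reads been counted too, these embryonic shares would be higher.

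Levels of different genes were compared per length, as the CPM of all counts of a gene per kb of sequence that occurs in no other gene, which overstates the adult globins if reads from shared sequence were counted. In wild-type arches Hbb-y was highest at 3307.0 ± 786 (SD, n = 5), followed by Hbb-bh1 at 2153.2 ± 447 and Hba-x at 1646.4 ± 392. Hba-a2 at 337 ± 78.9 and Hba-a1 at 278 ± 65.0 came next, then Alas2 at 22.9 ± 5.12, Slc4a1 at 17.3 ± 4.42, Klf1 at 5.21 ± 1.45 and Gata1 at 2.52 ± 0.447. This order of the 9 genes was the same in the means of Grhl2-/- arches, from 2556.2 ± 253 for Hbb-y to 1.78 ± 0.400 for Gata1. Over wild-type arches the ranges of 1 SD overlapped between Hbb-y and Hbb-bh1, Hbb-bh1 and Hba-x, Hba-a2 and Hba-a1, and Alas2 and Slc4a1, yet within single arches each of these pairs was in the same order in 10 of 10 arches. For Hba-a1 and Hba-a2 the order depends on the length used, since per kb of merged exons Hba-a1 was at 72.2 ± 16.9 and Hba-a2 at 33.4 ± 7.80. Adult beta genes, measured the same way on their own sequence, were at 54.1 ± 15.0 (Hbb-bt) and 16.9 ± 4.17 (Hbb-bs), so every embryonic globin transcript was above every adult one.

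**Figure D1:**
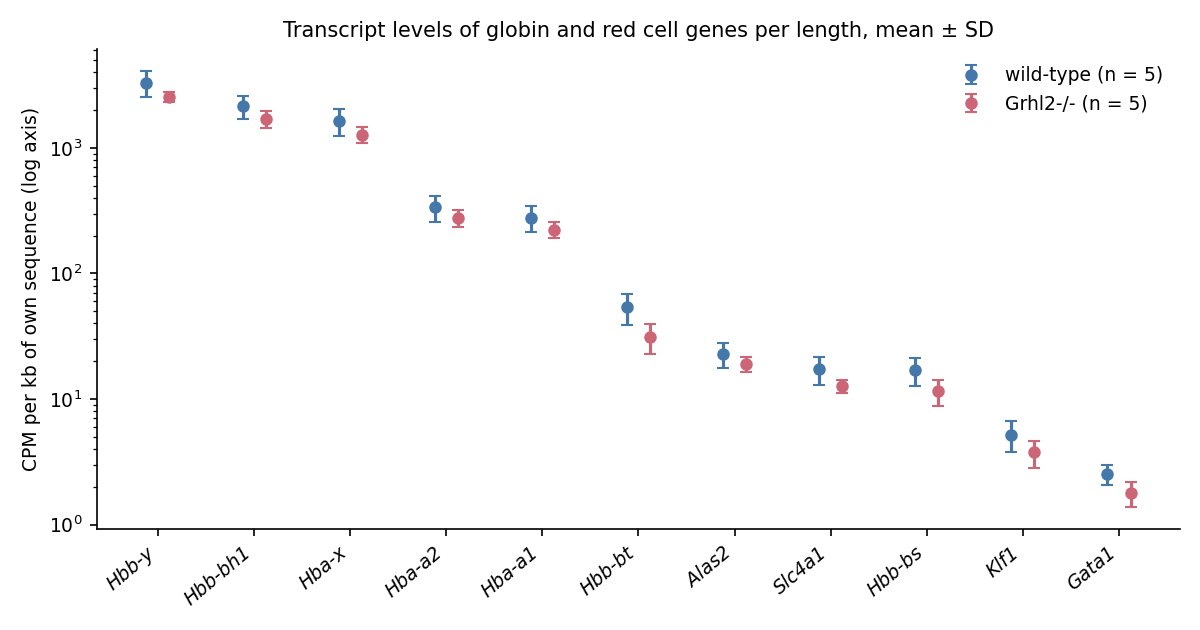
Level of each of the 9 genes and of the adult beta globins Hbb-bt and Hbb-bs, in TMM-normalized CPM of all its counts per kb of sequence that occurs in no other gene (log axis), as mean ± SD of 5 wild-type (blue) and 5 Grhl2-/- (red) arches. The 3 embryonic globins stand at 1275.2 to 3307.0, above Hba-a2 and Hba-a1 at 223 to 337 and above Gata1 at 2.52 and 1.78.

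The main question was whether these transcripts differed between wild-type and Grhl2-/- PA1. All 9 genes had a lower mean in Grhl2-/- arches, with log2 fold changes (Grhl2-/- minus wild-type) between -0.52 for Gata1 and -0.24 for Alas2 and a median of -0.35. None of the differences passed FDR 0.01, and the levels of the genotypes overlapped for every gene. Over all genes tested the median log2 fold change was 0.01, and 47.3% of genes had a negative one.

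Hba-x, which encodes the zeta chain, the embryonic partner of the beta-type chains, was at 1735.8, 1004.6, 1061.5, 1267.0 and 1121.7 CPM in wild-type arches 1-566, 1-568, 3-588, 5-566 and 8-568. In Grhl2-/- arches 1-588, 1-628, 2-566, 2-568 and 3-604 it was at 1017.4, 1006.4, 749, 907 and 1115.3 CPM. Only 2 Grhl2-/- arches lay below the lowest wild-type arch, and 3 wild-type arches lay above the highest Grhl2-/- arch. The means were 1238.1 ± 295 and 959 ± 139 CPM (SD, n = 5), and the log2 fold change was -0.35 with a 95% interval of -0.67 to -0.03 (FDR 0.140, limma-voom).

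Hbb-y, which encodes the epsilon-y chain, was the most abundant of the 9 transcripts. Across the wild-type arches, in the same order, it was at 2707.1, 1565.3, 1783.0, 1958.5 and 1642.6 CPM. The Grhl2-/- arches had 1671.2, 1502.6, 1320.0, 1372.3 and 1597.8 CPM. Arch 1-566 stood far above the other wild-type arches, and 3 Grhl2-/- arches lay below all wild-type arches. The log2 fold change was -0.35 (95% interval -0.63 to -0.06, FDR 0.114, limma-voom) between means of 1931.3 ± 459 and 1492.8 ± 148 CPM.

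For Hbb-bh1, the gene of the beta-h1 chain, wild-type arches had 1645.1, 1014.0, 1195.6, 1164.4 and 1053.1 CPM. The values in Grhl2-/- arches were 1124.2, 958, 749, 905 and 1046.4 CPM. The overlap was again partial, with 3 Grhl2-/- arches below the lowest wild-type arch and 3 wild-type arches above the highest Grhl2-/- arch. Its means of 1214.4 ± 252 and 957 ± 143 CPM gave a log2 fold change of -0.33 (95% interval -0.63 to -0.04, FDR 0.131, limma-voom).

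The adult alpha genes had a similar pattern at a far lower level. Hba-a1 was at 81.8, 46.8, 50.2, 57.3 and 57.2 CPM in wild-type arches and at 46.8, 50.1, 37.3, 44.6 and 56.1 CPM in Grhl2-/- arches. Hba-a2 was at 31.1, 18.2, 18.7, 22.5 and 20.9 CPM against 18.9, 19.0, 14.2, 17.7 and 21.9 CPM. In both genes the highest and the lowest arch were the same as for the embryonic genes, and the genotypes overlapped. The log2 fold changes were -0.30 for Hba-a1 (95% interval -0.61 to 0.02, FDR 0.197) and -0.26 for Hba-a2 (95% interval -0.58 to 0.07, FDR 0.271), both by limma-voom, and both intervals include 0. Their ratio of counts, 2.63 ± 0.0767 in wild-type and 2.57 ± 0.0712 in Grhl2-/- arches, is given only as a description because reads from shared sequence can be split between them or lost.

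Alas2 encodes the erythroid form of the first enzyme of haem synthesis. It was at 54.1, 31.8, 38.3, 38.2 and 33.9 CPM in wild-type arches and at 37.6, 33.1, 27.1, 29.2 and 36.8 CPM in Grhl2-/- arches. Arch 1-566 was again highest and Grhl2-/- arch 2-566 lowest, and 2 Grhl2-/- arches lay below all wild-type arches. Its log2 fold change was the smallest of the 9 genes, at -0.24 (95% interval -0.54 to 0.06, FDR 0.267, limma-voom). Part of the Alas2 transcript overlaps Apex2, a DNA repair gene, and Mir3620.

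Slc4a1 encodes band 3, the anion exchanger of the red cell membrane. Wild-type arches had 111, 61.5, 70.3, 80.8 and 65.8 CPM and Grhl2-/- arches had 64.4, 58.9, 49.7, 50.1 and 61.3 CPM. Here 4 of the 5 Grhl2-/- arches lay below the lowest wild-type arch and 4 of the 5 wild-type arches above the highest Grhl2-/- arch, the least overlap among the 9 genes. The means were 77.9 ± 19.9 and 56.9 ± 6.66 CPM, with a log2 fold change of -0.42 (95% interval -0.74 to -0.11, FDR 0.0903, limma-voom), the lowest FDR of the 9.

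Gata1 and Klf1 were at the lowest levels, with 63 to 155 and 119 to 247 counts per arch. For Gata1 the levels were 5.54, 3.85, 5.40, 4.76 and 3.80 CPM in wild-type arches and 4.24, 3.22, 2.18, 3.52 and 3.28 CPM in Grhl2-/- arches, so that only arch 1-588 of the Grhl2-/- arches reached into the wild-type range. The log2 fold change of -0.52 was the largest of the 9 genes (95% interval -0.91 to -0.12, FDR 0.0943, limma-voom). Klf1 was at 11.1, 6.11, 8.61, 6.72 and 6.06 CPM against 7.13, 5.27, 4.12, 4.48 and 6.76 CPM. Here arches 1-588 and 3-604 of the Grhl2-/- group lay inside the wild-type range, and the log2 fold change was -0.46 (95% interval -0.90 to -0.02, FDR 0.158, limma-voom).

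**Figure D2:**
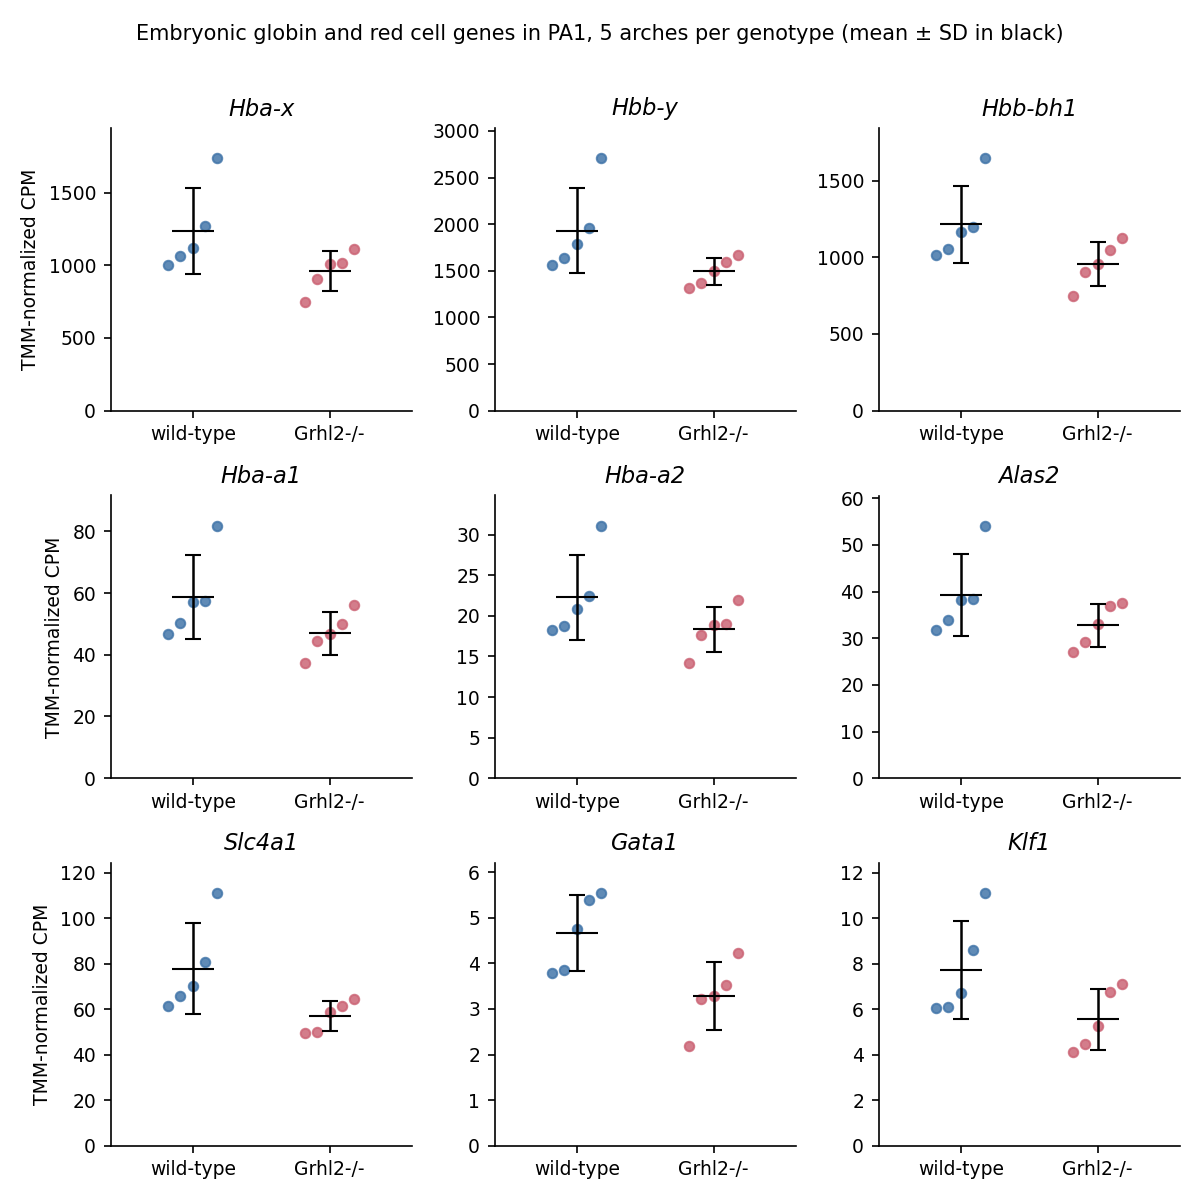
TMM-normalized CPM of each of the 9 genes in each arch (points, in rising order within a genotype), for 5 wild-type (blue) and 5 Grhl2-/- (red) arches, with the mean and SD in black and axes that start at 0. In every panel the genotypes overlap, the mean is lower in Grhl2-/- arches, and 1 wild-type arch, 1-566, is the highest (1735.8 CPM for Hba-x).

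With limma-voom 0 of the 9 genes passed FDR 0.01 in either direction, against 1.09% of all genes tested that were lower and 0.879% that were higher in Grhl2-/- arches. At an unadjusted p below 0.05, 6 of the 9 were lower (Hba-x, Hbb-y, Hbb-bh1, Slc4a1, Gata1 and Klf1), against 14.3% of all genes that were lower and 14.2% that were higher at this threshold. The quasi-likelihood test of edgeR also called 0 of 9 at FDR 0.01 and gave 6 of 9 at an unadjusted p below 0.05. Shares of all genes with edgeR are not given here, so its counts cannot be set against them. DESeq2 called 0 of 9 at FDR 0.01, with a lowest FDR of 0.0164 for Slc4a1, while it called 3.80% of all genes lower and 3.57% higher. It gave 7 of 9 at an unadjusted p below 0.05, for which its share of all genes is not given here. The genotypes did not overlap in 0 of the 9 genes, against 4.66% of all genes tested with every Grhl2-/- arch below every wild-type arch. The 9 genes were high and low in the same arches, as described further on, so that these counts do not rest on 9 separate observations.

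The size of the difference rested in part on single arches. Without wild-type arch 1-566 the median log2 fold change of the 9 genes was -0.22 and 3 of them had an unadjusted p below 0.05. Without Grhl2-/- arch 2-566 these values were -0.26 and 2, and without Grhl2-/- arch 2-568, 3 genes had such a p. Leaving out Grhl2-/- arch 1-588 gave a median of -0.40 and the lowest FDR of any fit with an arch left out, 0.0446 for Gata1. All 9 log2 fold changes stayed negative in each of these fits.

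Other globin genes of red cells were read beside them. Hbb-bt, an adult beta gene, was at 14.8 ± 4.09 CPM in wild-type arches and 8.55 ± 2.28 CPM in Grhl2-/- arches, a log2 fold change of -0.75 (95% interval -1.20 to -0.31, FDR 0.0458, limma-voom). Its genotypes overlapped between 10.9 and 12.2 CPM, and DESeq2 gave an FDR of 0.00296. Its neighbour Hbb-bs, which shares most of its sequence with Hbb-bt, was at 3.34 ± 0.826 and 2.28 ± 0.544 CPM, with a log2 fold change of -0.53 (95% interval -0.96 to -0.11, FDR 0.105, limma-voom). Hbq1b, a theta globin gene, was at 5 to 16 counts per arch with a log2 fold change of 0.09 (95% interval -0.53 to 0.70). Hbb-bh2, with 0 to 6 counts per arch, and Hbq1a, with 0 to 3, were too low to be tested, and Hbb-b1 and Hbb-b2 were not analysed here.

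Genes that act with the 9 in red cells mostly had lower means in Grhl2-/- arches too, and none of them passed FDR 0.01 with limma-voom or edgeR. Of 15 genes of haem synthesis and iron uptake, 12 had a negative log2 fold change with a list median of -0.17, and 9 were lower and 1 was higher at an unadjusted p below 0.05. The most abundant were Tfrc, the transferrin receptor (log2 fold change 0.01, FDR 0.969), Slc25a37, the mitochondrial iron importer (-0.25, FDR 0.131), and Urod, an enzyme of haem synthesis (-0.07, FDR 0.410). In 5 of the 15, every Grhl2-/- arch lay below every wild-type arch, which held for 4.66% of all genes tested. These 5, named after their values were seen, were Alad, Slc25a38, Abcb10, Slc11a2 and Steap3, with log2 fold changes of -0.17, -0.21, -0.26, -0.25 and -0.61. DESeq2 called 3 of them at FDR 0.01 (Abcb10, Slc11a2 and Steap3).

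The red cell membrane and its skeleton gave 13 of 15 genes with a negative log2 fold change and a median of -0.26, with 7 lower at an unadjusted p below 0.05. Without Grhl2-/- arch 2-568, 4 of the 15 had such a p. In 0 of the 15 were the genotypes apart. The most abundant members of this list had small differences, with log2 fold changes of -0.03 for Epb41 (protein 4.1), 0.02 for Sptb (beta spectrin) and -0.06 for Gypc (glycophorin C). DESeq2 called 1 of the 15, Rhag, a membrane channel of the Rh complex, at a log2 fold change of -0.57 (FDR 0.00703).

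Among 10 other red cell genes, 8 had a negative log2 fold change, the median was -0.28 and 4 were lower at an unadjusted p below 0.05. Car2, the carbonic anhydrase of red cells, was at 52.9 ± 14.4 CPM in wild-type arches and 30.5 ± 5.99 CPM in Grhl2-/- arches (log2 fold change -0.77, FDR 0.0237, limma-voom). Bpgm, which makes the haemoglobin ligand bisphosphoglycerate, was at 48.5 ± 4.68 and 37.8 ± 3.56 CPM (-0.36, FDR 0.0230, limma-voom). Prdx2, an antioxidant enzyme, differed by -0.10 (FDR 0.332). For Car2, Bpgm and Hemgn, 3 of the 10 genes, every Grhl2-/- arch lay below every wild-type arch, which held for 4.66% of all genes tested. DESeq2 called the same 3 at FDR 0.01.

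The blood transcription regulators were more mixed. Of 16 genes, 11 had a negative and 5 a positive log2 fold change with a median of -0.03, with 3 lower (Myb, Zbtb7a and Ikzf1) and 3 higher (Lmo2, Klf3 and Runx1) at an unadjusted p below 0.05. Without Grhl2-/- arch 2-566, 7 of the 16 were negative and the median was 0.01, and with library size alone 8 were negative. The most abundant were Ldb1, a cofactor of the GATA1 complex (-0.01, FDR 0.909), Klf3, a repressor that KLF1 activates in red cells (0.22, FDR 0.0323), and Bcl11a, a repressor of embryonic and fetal globin genes (-0.08, FDR 0.878). Lmo2, another member of the GATA1 complex that is also made in vessels, was at 14.1 ± 1.85 CPM in wild-type arches and 18.2 ± 1.30 CPM in Grhl2-/- arches, with a log2 fold change of 0.38 (FDR 0.0346, limma-voom). In 3 of the 16 genes (Lmo2, Klf3 and Runx1) the lowest Grhl2-/- arch exceeded the highest wild-type arch, which held for 4.22% of all genes tested. DESeq2 called Lmo2, Klf3 and Runx1, all higher.

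**Figure D3:**
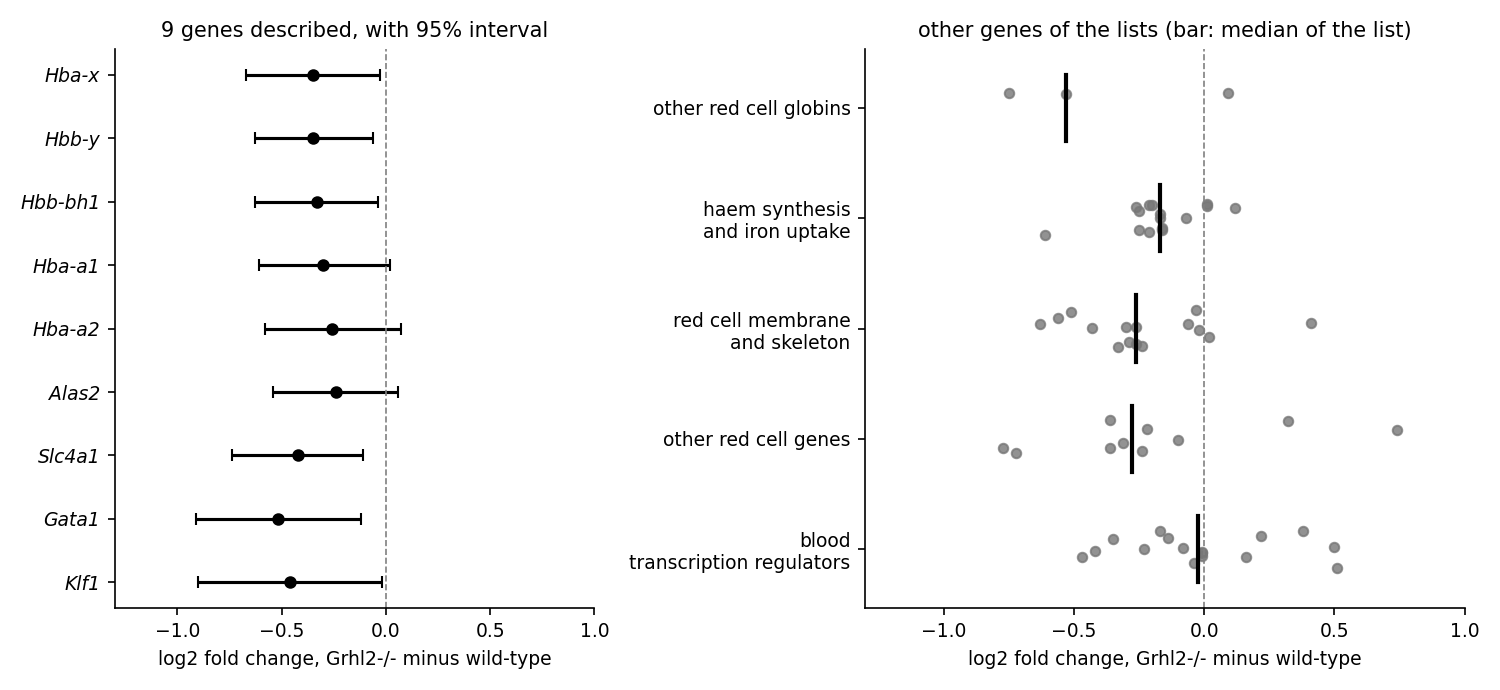
Log2 fold changes (Grhl2-/- minus wild-type, limma-voom, 5 arches per genotype). Left, the 9 genes with their 95% intervals, all with a point estimate between -0.52 and -0.24; right, single genes of 5 other lists (grey points) with the median of each list (black bar), from -0.53 for 3 other red cell globins to -0.03 for 16 blood transcription regulators.

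Markers of other cells that an arch or its blood can hold were summed in each arch. The 12 megakaryocyte and platelet markers summed to 31.8 to 43.7 CPM in wild-type arches and 50.2 to 77.7 CPM in Grhl2-/- arches, and 10 of the 11 tested had a positive log2 fold change, of which Vwf, also made in vessels, was called at 1.23 (FDR 0.00700, limma-voom). Without Vwf the other 11 summed to 19.6 to 31.5 CPM and 24.2 to 32.0 CPM, and the genotypes overlapped. The call of Vwf held without Grhl2-/- arch 1-588, 2-566 or 2-568 and was lost without any one of the other 7 arches and with the label number as a replicate block. Endothelial markers (13 genes) summed to 459 to 536 against 512 to 639 CPM, with 12 of 13 positive and 7 higher at an unadjusted p below 0.05. Of these 0 were called by limma-voom and 0 by edgeR, 2 were called without Grhl2-/- arch 2-566 and 2 with sample quality weights, and DESeq2 called 4 (Pecam1, Kdr, Eng and Sox17). The 14 macrophage markers summed to 40.7 to 60.6 CPM and 33.7 to 104 CPM, and 10 of them had a positive log2 fold change with a median of 0.13. The macrophage median was -0.08 without Grhl2-/- arch 2-568 and 0.49 with the replicate block, where 14 of 14 were positive and 8 had an unadjusted p below 0.05. Sensory neuron markers, 10 genes, spanned 38.1 to 755 CPM in wild-type arches and 255 to 944 CPM in Grhl2-/- arches, and 10 of 10 had a positive log2 fold change with a median of 2.06 (0.92 to 2.77 with an arch left out, 0.67 with DESeq2 or edgeR). Of 9 arch epithelium markers 7 were called lower (Epcam, Cdh1, Cldn4, Cldn6, Cldn7, Esrp1 and Grhl2 itself, log2 fold changes -3.32 to -1.63), with sums of 311 to 426 against 113 to 205 CPM, and of the 11 mesenchyme markers 3 were (Msx1, Lhx6 and Lhx8; 2 or 3 with an arch left out), while DESeq2 called 7 of them. All 11 mesenchyme markers had a negative log2 fold change, with a median of -0.34, close to the -0.35 of the 9 genes, and 8 were lower at an unadjusted p below 0.05. No marker in these lists was at 0 in every arch. Mesenchyme and epithelium markers thus had the direction of the 9 red cell genes and sensory neuron, platelet, endothelial and macrophage markers mostly the opposite one, and the part of any of these cell types in the differences of the 9 genes was not tested.

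Ratios between globin genes within a library do not move with the amount of red cell RNA in it, and 3 of them were tested. The ratio of Hbb-bh1 to Hbb-y counts was 0.608, 0.648, 0.671, 0.595 and 0.641 in wild-type and 0.673, 0.638, 0.568, 0.659 and 0.655 in Grhl2-/- arches. The ratio of Hba-x to the sum of Hba-a1 and Hba-a2 was 15.4, 15.4, 15.4, 15.9 and 14.4 against 15.5, 14.6, 14.5, 14.6 and 14.3. The genotypes overlapped in both ratios, in the second only through wild-type arch 8-568 and Grhl2-/- arch 1-588. Their log2 differences were 0.01 (95% interval -0.11 to 0.14) and -0.06 (95% interval -0.11 to 0.01), with p = 0.833 and 0.143 in an exact permutation test (two-sided, all 252 assignments of the arches), or 0.833 and 0.214 after Benjamini-Hochberg adjustment over the 3 ratios. The smallest p this test can give is 0.00794. For the second ratio the exact permutation p was 0.0397 (adjusted 0.119) without either wild-type arch 8-568 or Grhl2-/- arch 1-588.

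The ratio of adult (Hbb-bs and Hbb-bt) to embryonic (Hbb-bh1 and Hbb-y) beta globin counts was the third. It was 0.00596, 0.00567, 0.00473, 0.00619 and 0.00614 in wild-type arches and 0.00382, 0.00327, 0.00519, 0.00633 and 0.00388 in Grhl2-/- arches. Here 3 Grhl2-/- arches lay below all wild-type arches, while arch 2-568 had the highest ratio of all 10. The means were 0.00574 ± 0.000601 and 0.00450 ± 0.00124, a log2 difference of -0.39 (95% interval -0.79 to 0.09, exact permutation p = 0.0873, adjusted 0.214). The difference was -0.131 with the label number as a replicate block. It was -0.520 without arch 2-568 of the Grhl2-/- group (exact permutation p = 0.0238, adjusted 0.0714) and -0.282 without arch 1-628 of that group (exact permutation p = 0.159, adjusted 0.238).

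**Figure D4:**
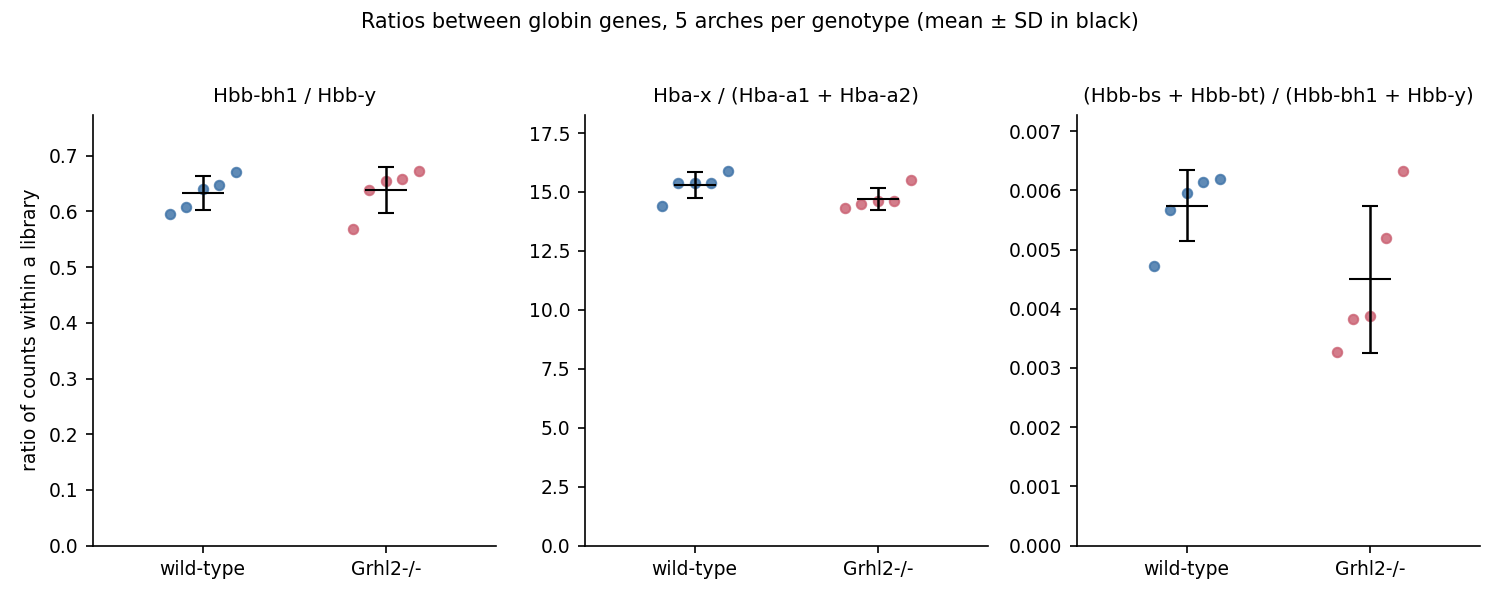
Ratios of counts within a library for embryonic beta genes (left), embryonic to adult alpha genes (middle) and adult to embryonic beta genes (right) in 5 wild-type (blue) and 5 Grhl2-/- (red) arches, with mean and SD in black and axes that start at 0. The first ratio overlaps widely (0.595 to 0.671 against 0.568 to 0.673), the second overlaps through 1 arch of each genotype (14.4 to 15.9 against 14.3 to 15.5), and the adult share of beta counts is the most spread in Grhl2-/- arches, from 0.00327 to 0.00633.

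The balance of the chains and of globin to the other red cell genes was described without a test. Alpha-type to beta-type counts stood at 0.419 ± 0.0247 in wild-type and 0.418 ± 0.0294 in Grhl2-/- arches. The summed globin counts were 114 ± 3.75 and 106 ± 3.04 times those of Alas2, and 57.6 ± 1.89 and 61.1 ± 2.68 times those of Slc4a1. The SD of these ratios was a smaller part of their mean than that of the single genes, whose SD in wild-type arches was between 17.7% (Gata1) and 27.8% (Klf1) of the mean.

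The 9 genes were high and low in the same arches. Wild-type arch 1-566, with 0.615% of its counts on the 5 globin genes, was the highest of all 10 arches for each of the 9 genes and also had the fewest counts in all. Grhl2-/- arch 2-566, with 0.288%, was the lowest for each of the 9 and had the most counts in all. The part of depth in this was not tested, and the TMM factors lay between 0.9803 and 1.0148. Between these arches the genotypes were mixed, with shares of 0.448% and 0.412% in wild-type arches 5-566 and 3-588, 0.393% in Grhl2-/- arch 1-588, 0.386% in wild-type arch 8-568, 0.382% in Grhl2-/- arch 3-604, 0.358% in wild-type arch 1-568 and 0.356% and 0.329% in Grhl2-/- arches 1-628 and 2-568. After the mean of the genotype was removed, each gene was correlated over the 10 arches with the mean of 7 of the genes (Hba-a1 and Hba-a2 left out of the mean because of their shared reads, and each gene left out of its own mean). Pearson's r was 0.993 for Hbb-bh1, 0.990 for Alas2, 0.948 for Hbb-y, 0.933 for Slc4a1, 0.913 for Klf1, 0.900 for Hba-x, 0.888 for Hba-a2, 0.859 for Hba-a1 and 0.747 for Gata1. These values describe 10 libraries, and genes of one library share its depth and its normalization.

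**Figure D5:**
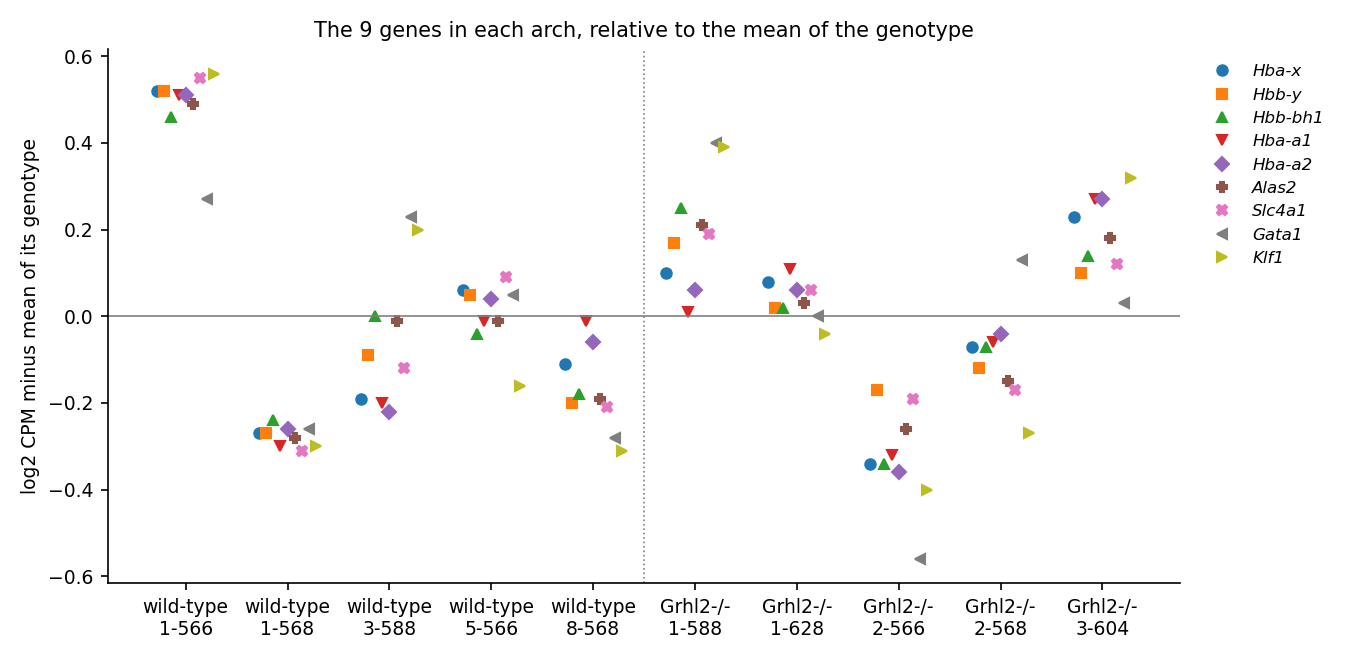
Log2 CPM of each of the 9 genes (one marker each) minus the mean of its genotype, in each of the 10 arches named by their labels, wild-type left of the dotted line and Grhl2-/- right of it. The genes move as a block in most arches, with 8 of the 9 between 0.46 and 0.56 above the mean in wild-type arch 1-566 and all 9 below the mean in Grhl2-/- arch 2-566.

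Among 12683 genes with a mean of at least 1 CPM, those whose deviations were most like the mean of these 7 genes included Car2 (r = 0.976), Sav1 (0.932), Tal1 (0.912), Fech (0.911), Snrnp70 (0.909), Ermap (0.905), Hbb-bs (0.900), Nkapl (0.899) and Slc25a37 (0.896). Of these, Car2, Tal1, Fech, Ermap, Hbb-bs and Slc25a37 are on the lists of red cell genes above. Hbb-bt, the more abundant neighbour of Hbb-bs, had an r of 0.26, and the median of these 2 other red cell globins was 0.58. Sav1, an adaptor of the Hippo pathway, and Snrnp70, a splicing protein, are not on the lists of red cell genes. At the other end were Cltc, the clathrin heavy chain (-0.926), and Unc5c, a netrin receptor (-0.883). The median r was 0.83 for other red cell genes, 0.72 for the membrane list, 0.55 for haem synthesis and iron uptake and 0.30 for blood transcription regulators, against 0.01 over all genes. For cells that travel with or beside red cells it was 0.20 (megakaryocyte and platelet), 0.14 (endothelial) and -0.09 (macrophage).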

How the data were processed

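RNA of whole PA1 was prepared as stranded, ribosome-depleted libraries. The authors aligned reads to GRCm38 with STAR and counted them per gene with featureCounts (versions not given in the sources used here; the submitters' processing notes also name edgeR 3.18.1 and limma 3.32.7), and deposited raw counts of 22114 protein-coding genes. The name of the deposited table points to reverse-strand counting, but no source used here states it, which bears on Alas2 where it overlaps Apex2. A second deposited table holds the authors' own comparison (log2 fold changes, average expression, adjusted p-values) and was not used.

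Here genes that reached 10 counts in any arch were kept, and their counts were normalized by TMM and tested with limma-voom (limma 3.58.1, edgeR 4.0.16, R 4.3.3), genotype as the only term, Benjamini-Hochberg adjustment over 14561 genes and a threshold of FDR 0.01. DESeq2 1.42.0 (independent filtering off) and edgeR's quasi-likelihood test were alternatives. The scripts were tested on simulated counts. Log2 CPM for correlations used a prior count of 0.5. Ratios of counts were tested with exact permutation tests, and their 95% intervals hold the differences that test does not reject. Coordinates and transcripts are from GENCODE mouse release M21 and promoters from RefSeq. Other alternatives were other scalings, filters and weights, the label number as a block and each arch left out. Levels and shares per kb of own sequence, the platelet sum without Vwf and the count of negative log2 fold changes were added after the data were seen.

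The 9 genes and all lists were chosen with earlier results of these data known. Named were all 9 genes, other red cell globins, the 3 most abundant genes of each pathway list, genes past FDR 0.01 and the 10 most and 3 least alike genes, of which 2 are not reported here; others are said to be chosen after their values were seen. Genes named for lying apart between genotypes, for an unadjusted p or for a DESeq2 call were of this last kind. Ahsp was not analysed here.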

Additional observations from a re-analysis of the deposited data

Results flagged for a closer look

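Of 40 sets of 5 arches checked for a single arch far from the others (Dixon's test at the 95% level), 2 stood out, and chance flags about 1 in 20 groups, or 2 here. The log2 ratio of Hba-x to Hba-a1 and Hba-a2 was 3.95 in Grhl2-/- arch 1-588, the highest of its genotype, with the next at 3.86 and a gap of 0.766 of the range. The log2 ratio of summed globins to Alas2 was 6.74 in wild-type arch 3-588, the lowest of its genotype, with the next at 6.84 and a gap of 0.765 of the range.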

How the results depend on the processing

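All 9 log2 fold changes stayed negative and 0 of 9 genes passed FDR 0.01 in each of the 18 other fits, which were edgeR, DESeq2, median-of-ratios factors, library size alone, 2 other filters, sample weights, the label number as a replicate block and each arch left out. At FDR 0.05, the main limma-voom fit also called 0 of 9. Below that threshold were Slc4a1 with DESeq2 (FDR 0.0164) and Gata1 with limma-voom without Grhl2-/- arch 1-588 (FDR 0.0446). Over the 10 fits with an arch left out, 2 to 8 of the 9 genes had an unadjusted p below 0.05, and the lowest FDR was between 0.0446 and 0.153. The label number is shared but its meaning is not given. Deviations correlated at 0.105 on average over 5 pairs of arches of the same number (-0.237 to 0.420) and at -0.0254 over 20 pairs of different numbers, so the numbers were not taken to pair the arches. With the replicate block the median of the 9 genes was -0.42 and the lowest FDR 0.109.

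The difference of the Hbb-bh1 to Hbb-y ratio, 0.013, had no stable sign. It was -0.017 with the replicate block and between -0.009 and 0.054 with an arch left out, with negative values without wild-type arches 1-566 and 5-566 and without Grhl2-/- arch 1-588. The Hba-x ratio was -0.086 against Hba-a2 alone (exact permutation p = 0.0159, adjusted 0.0476) and -0.048 against Hba-a1 alone (exact permutation p = 0.206, adjusted 0.310), beside -0.059 against both and -0.081 to -0.045 with an arch left out. That Hba-a2 has 13.1% of windows of its own limits this value. The adult to embryonic beta ratio, -0.387, was -0.131 with the replicate block and -0.520 to -0.282 with an arch left out. The cause of these shifts was not tested. Depth limits Hbb-bh2 and Hbq1a, which had at most 6 and 3 counts in an arch.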

Other observations

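Globins that work outside red cells were read too. Mb, which encodes the oxygen store of muscle, was at 0.433 ± 0.204 CPM in wild-type arches and 0.0898 ± 0.0583 CPM in Grhl2-/- arches (SD, n = 5), with at most 19 counts in an arch. It passed the filter on low counts only through wild-type arches, so no test is given. Cygb, cytoglobin, was at 4.70 ± 0.951 and 5.75 ± 1.06 CPM, a log2 fold change of 0.27 (95% interval -0.09 to 0.64, FDR 0.299, limma-voom), and the genotypes overlapped. Ngb was too low to be tested.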
